A study of Mus musculus with 2 samples.

Results

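The genes described here are the MYB family genes Myb, Mybl1 and Mybl2, the MYC family genes Myc, Mycn and Mycl, the MYC partner gene Max and the MAX-binding antagonist genes Mxi1 and Mxd1, in all 9 of the 27998 genes counted. They were chosen by symbol, and all 9 were found in both libraries. The cells came from 1 wild-type C57BL/6J mouse liver at E12.5, a stage at which the liver is the main site of blood formation, and were sequenced as 2 technical replicate libraries by droplet-based single-cell RNA sequencing (scRNA-seq). According to the methods the libraries are technical replicates of 1 sample, whereas the design text speaks of 2 suspensions, so that what the spread between them covers is not certain. Each captured RNA molecule was counted once through its unique molecular identifier (UMI). With 1 liver and no second group, no test between samples was possible. Intervals below are 95% intervals that cover counting error only, and values in pairs are those of library 1 and library 2, in this order.

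The deposited table assigned 5480 cells of library 1 and 5057 cells of library 2 to cell types, with 51969226 and 62738015 UMIs. Erythroid-committed progenitors (Ery) were subdivided into Ery 1 and Ery 2, and erythroblasts (Eryb) into Ery 3 to Ery 6. From Ery 1 to Ery 6, the share of UMIs from the adult alpha- and beta-globin genes rose from 1.02% to 57.0% in library 1 and from 2.32% to 77.9% in library 2, while the mean number of UMIs per cell fell from 26329 to 4674 and from 25864 to 8424. Every listed marker of granulocytes (G), monocytes and Kupffer cells (Mo/KC), megakaryocytes (Mk), primitive erythroblasts (EryP), endothelial cells (EC) and hepatoblasts (Hepa) was highest in its own cell type in both libraries. For the hematopoietic stem and progenitor cell (HSPC) cluster this held for 3 of 4 markers in each library, for erythroblasts for 7 and 6 of 8, and for erythroid progenitors, whose markers are shared with the neighboring stages, for 0 and 2 of 5. In the erythroid subclusters, the summed level of the mast cell and basophil markers reached at most 9.62 and 8.29 CPM (counts scaled to 1000000 UMIs). In EryP, the 3 markers, all embryonic globin genes, summed to 615567 and 482126 CPM, which lowers the CPM of its other genes. The libraries shared 31 cell barcodes. The clusters were made from the same expression data, and the study used Myb to name the HSPC cluster, so that the levels below are a description.

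MYB proteins are transcription factors that bind DNA through a conserved repeat domain. MYB itself is needed for definitive, but not primitive, blood formation, whereas MYBL2 acts in dividing cells with the MuvB complex at genes of the late cell cycle. MYC proteins bind E-box DNA only as a pair with MAX and drive genes of growth, and MXD proteins, including MXI1, compete for MAX and repress such genes, often when cells stop dividing and differentiate.

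RefSeq promoter windows of build GRCm38.p6 were available for 7 of the 9 genes, in 9 windows because Mxi1 has several start sites. The 250 bases before the start site are shown for Myb, which was lost early, Mycn, which was already low in Ery 1, Mybl2, which was lost late, and Mxd1, which rose, so that the genes with the most different courses can be compared. The strand is that of the gene, and capitals mark matches to GGCGGGA or TTGGCGC, core letters of sites for E2F factors, to TTTGAA, the cell cycle homology element CHR, or to CCAAT, each searched on both strands.
Myb (chr10:21160985-21161234, minus strand): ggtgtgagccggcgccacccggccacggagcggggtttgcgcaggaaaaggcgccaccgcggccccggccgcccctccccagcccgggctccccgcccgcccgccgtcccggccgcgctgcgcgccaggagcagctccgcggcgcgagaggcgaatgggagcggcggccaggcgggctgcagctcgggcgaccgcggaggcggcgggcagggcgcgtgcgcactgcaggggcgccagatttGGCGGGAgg
Mycn (chr12:12941837-12942086, minus strand): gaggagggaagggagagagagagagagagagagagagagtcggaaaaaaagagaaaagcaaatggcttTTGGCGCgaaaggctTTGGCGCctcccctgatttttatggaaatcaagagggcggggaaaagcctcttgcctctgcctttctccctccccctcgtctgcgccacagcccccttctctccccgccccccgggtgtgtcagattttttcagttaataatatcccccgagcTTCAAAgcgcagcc
Mybl2 (chr2:163054385-163054634, plus strand): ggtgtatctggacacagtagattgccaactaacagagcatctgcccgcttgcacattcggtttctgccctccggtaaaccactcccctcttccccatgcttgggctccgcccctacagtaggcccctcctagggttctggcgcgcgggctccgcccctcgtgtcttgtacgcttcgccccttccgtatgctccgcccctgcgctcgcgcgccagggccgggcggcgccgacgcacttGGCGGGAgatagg
Mxd1 (chr6:86669160-86669409, minus strand): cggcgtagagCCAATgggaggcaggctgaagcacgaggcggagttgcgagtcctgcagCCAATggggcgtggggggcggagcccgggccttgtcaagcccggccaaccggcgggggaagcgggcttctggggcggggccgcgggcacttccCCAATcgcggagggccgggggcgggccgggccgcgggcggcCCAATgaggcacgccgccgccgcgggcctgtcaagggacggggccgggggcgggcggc

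An E2F match lay at position -9 from the start of Myb and at -13 from the start of Mybl2, and 2 lay at -182 and -167 in Mycn. Mycl and 2 of the 3 Mxi1 windows also held such a match, whereas the windows of Max and Mxd1 held none, beside 11.3% of all 32851 promoter windows of this length. Mxd1 held 4 CCAAT matches, at -240, -192, -99 and -58, and was the only one of the 9 windows with any, beside 33.8% of all windows. Mycn held a CHR match on the other strand at -14, beside 16.0% of all windows. None of the 9 windows held CACGTG, the E-box bound by MYC and MAX, or GATAA, the letters read by GATA factors, beside 6.02% and 22.6% of all windows. The motifs were chosen with these sequences in view, overlap between them was not removed, and a match in these letters is a description and not a binding site.

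Myb (ENSMUSG00000019982, chromosome 10, 21124935 to 21160984, minus strand, GRCm38) was highest in the granulocyte cluster, with levels of 139.6 (123 to 157) and 116 (101 to 132) CPM, and in the HSPC cluster, with 119 (108 to 132) and 108 (96.6 to 120) CPM. The intervals of these clusters overlapped in both libraries. In Ery it was at 65.2 and 63.6 CPM, and in every other cell type it was at 15.8 CPM or lower. After thinning each cell to 3600 UMIs, a Myb UMI was found in 35.1% of HSPC cells in library 1 and 30.3% in library 2, and in 0.951% and 0.415% of erythroblasts. Without thinning the HSPC shares were 73.7% and 70.7%, with median depths of 16053 and 14956 UMIs per HSPC cell and 5613 and 8982.5 per erythroblast. An antisense gene, Gm26577, overlaps Myb on the opposite strand and is counted separately.

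Along maturation, Myb was the first to be lost of the genes that were still abundant in Ery 1. In library 1 it was at 107, 19.8, 2.60, 3.02, 1.71 and 2.99 CPM from Ery 1 to Ery 6, and in library 2 at 101, 24.0, 3.42, 0.780, 0.854 and 0.505 CPM. The level in Ery 1 was close to that of HSPC, with ratios of 0.899 (0.801 to 1.01) and 0.934 (0.823 to 1.06). Myb then fell 5.42-fold and 4.19-fold from Ery 1 to Ery 2 and 7.62-fold and 7.02-fold from Ery 2 to Ery 3. Barcodes with 1 to 50 UMIs, which hold free RNA, had 39.5 and 26.0 CPM of Myb. If such RNA made up 10% of the UMIs of a cell, it would give 3.95 and 2.60 CPM, so that the values from Ery 3 on were near or below this assumed background, and no difference among them was read.

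Mybl2 (ENSMUSG00000017861, chromosome 2, 163054687 to 163084688, plus strand) was higher in CPM in Ery 3 than in Ery 1, the stages over which Myb fell. In HSPC its level was 31.9 (26.2 to 38.4) and 41.6 (34.8 to 49.4) CPM. From Ery 1 to Ery 6 it was at 55.4, 69.6, 93.6, 93.4, 56.5 and 7.73 CPM in library 1 and at 55.9, 68.7, 74.9, 59.7, 34.5 and 3.53 CPM in library 2. In CPM it was thus highest in Ery 3, where Myb was already low. The peak depended on the scale. Without globin UMIs it lay in Ery 4, with 146.9 and 139.6 CPM beside 111 and 104.8 CPM in Ery 3. Per 100 cells, Mybl2 was highest in Ery 1, with 145.9 and 144.6 UMIs, and was at 96.3 and 95.2 UMIs in Ery 3. The intervals of Ery 3 overlapped with those of Ery 4 in library 1 and of Ery 2 in library 2. The ratio of Mybl2 to Myb UMIs went from 0.516 (0.465 to 0.573) in Ery 1 to 36 (23.1 to 59.3) in Ery 3 in library 1, and from 0.555 (0.498 to 0.619) to 21.9 (15 to 33.2) in library 2. The Ery 3 ratios rest on 20 and 28 Myb UMIs, near the assumed free RNA level of Myb, so that their size is uncertain. The main loss of Mybl2 came at the end, from Ery 5 to Ery 6. It fell 7.31-fold (interval 5.21 to 10.4) in library 1 and 9.76-fold (6.79 to 14.4) in library 2. An assumed 10% of free RNA would give 5.52 and 4.54 CPM of Mybl2. Ery 6, at 7.73 and 3.53 CPM, was near this level in library 1 and below it in library 2. The size of the fall is therefore uncertain. Outside Ery and Eryb, Mybl2 ranged from 22.9 to 48.3 CPM in every type but EryP, which had 7.31 and 6.21 CPM. This exception depended on the scale. Without globin UMIs, EryP of library 1 was at 31.4 CPM, from 7 UMIs, beside 32.4 CPM in HSPC. In EryP of library 2, adult globins made up 34.3% of UMIs and the embryonic globin markers summed to 482126 CPM, so that its level would also be higher without globin UMIs.

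Mybl1 (ENSMUSG00000025912, chromosome 1, 9667415 to 9700209, minus strand), the family member best known from male germ cells, was nearly absent. Its 15 UMIs in library 1 and 8 in library 2 were scattered over the cell types, and it had no UMI in HSPC. There 3 counts would correspond to 0.870 and 0.96 CPM, and the exact intervals reach 1.07 and 1.18 CPM. Mybl1 was too sparse for any order along maturation.

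Myc (ENSMUSG00000022346, chromosome 15, 61985391 to 61990374, plus strand) was highest in HSPC, with levels of 148 (135 to 161) and 98.6 (87.9 to 110.2) CPM. Ery followed with 110.0 and 78.7 CPM, the granulocyte cluster with 95.7 and 73.8 CPM and ECs with 95.4 (61.7 to 141) and 59.99 (41.5 to 83.8) CPM. These last 3 overlapped with a neighbor in the order in both libraries. Mo/KC had 45.7 and 38.4 CPM, and all remaining types were at 28.4 CPM or lower. Ery pools Ery 1 with Ery 2, and Ery 1 alone was at 149 and 103 CPM, close to HSPC. In HSPC the intervals of the libraries did not overlap, and the cause of this difference was not tested.

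Myc left the erythroid series later than Myb. It was at 149, 68.2, 20.1, 4.02, 3.42 and 5.09 CPM from Ery 1 to Ery 6 in library 1 and at 103, 53.0, 14.0, 3.12, 1.02 and 1.72 CPM in library 2. It did not differ between HSPC and Ery 1 beyond counting error, with ratios of 1.01 (0.912 to 1.12) and 1.04 (0.916 to 1.19). The fall was spread over 3 steps, of 2.18-fold and 1.94-fold from Ery 1 to Ery 2, 3.38-fold and 3.77-fold from Ery 2 to Ery 3, and 5.01-fold and 4.50-fold from Ery 3 to Ery 4. An assumed 10% of free RNA would give 5.12 and 3.47 CPM of Myc, so that no difference was read among Ery 4 to Ery 6, and the size of the fall to them is uncertain.

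Mycn (ENSMUSG00000037169, chromosome 12, 12936093 to 12941914, minus strand), a MYC gene prominent in early progenitors, was the most restricted of the abundant members. In HSPC it reached 112 (101 to 124) and 102 (90.9 to 114) CPM, followed by megakaryocytes with 35.1 (23.1 to 51.0) and 49.3 (36.6 to 65.0) CPM. The granulocyte cluster, in which both Myb and Myc were high, had 0 and 1 Mycn UMIs, and 3 counts would correspond to 1.59 CPM in library 1. Hepatoblasts had 15.6 CPM from 10 UMIs and 6.17 CPM from 5 UMIs, and all remaining types were at 8.82 CPM or lower.

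Mycn was much lower in Ery 1 than in HSPC. In Ery 1 its level was 4.25 (3.07 to 5.75) and 4.20 (2.99 to 5.74) CPM, which is 26.4-fold (19.2 to 37.2) and 24.2-fold (17.3 to 34.7) lower than in HSPC. This is above the 0.810 and 0.459 CPM that 10% of free RNA would give. From Ery 2 to Ery 6 it had 11 UMIs in all in library 1 and 10 in library 2. Within the HSPC cluster, the share of cells with a Myc UMI was similar with and without a Mycn UMI, within counting error. A Myc UMI was found in 25.4% (15.3 to 37.9%) of thinned HSPC cells with a Mycn UMI and in 28.4% (21.3 to 36.4%) of those without one in library 1, and in 26.2% (15.8 to 39.1%) and 25.9% (19.0 to 33.7%) in library 2.

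Mycl (ENSMUSG00000028654, chromosome 4, 122995652 to 123002485, plus strand), the third MYC gene, had a level of 6.38 (4.0 to 9.66) and 3.52 (1.76 to 6.30) CPM in HSPC, from 22 and 11 UMIs. The other cell types held between 0 and 4 UMIs each. The 4 UMIs of Mo/KC in library 1 came to 5.89 (1.61 to 15.1) CPM. In both libraries the HSPC interval overlapped that of the next type, so that HSPC could not be told apart from it. No cell of the erythroid subclusters of either library held a Mycl UMI. Taking 3 counts per library as the limit, Mycl would be 21.0-fold and 10.9-fold lower in Ery 1 than in HSPC. The exact intervals, which also cover the counting error in HSPC, allow falls as small as 15.7-fold and 7.46-fold.

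Max (ENSMUSG00000059436, chromosome 12, 76937269 to 76962201, minus strand), the shared partner, was found in every cell type. It ranged from 42.2 to 131 CPM outside EryP and Eryb. Over all UMIs EryP was lowest, with 7.31 (2.94 to 15.1) and 13.5 (7.17 to 23.0) CPM, from 7 and 13 UMIs. Globin UMIs fill much of the EryP total, and without them its level in library 1 was 31.4 CPM. In library 2, with 34.3% of EryP UMIs from adult globins and 482126 CPM from the embryonic globin markers, it would be higher too. The last place of EryP for Max was therefore read over all UMIs only. Along maturation it declined by less than the other falling genes, and was at 119, 90.5, 62.0, 44.1, 37.3 and 31.1 CPM from Ery 1 to Ery 6 in library 1 and at 107, 81.9, 53.3, 28.6, 20.3 and 18.6 CPM in library 2. With globin UMIs left out of the total, its levels from Ery 3 to Ery 6 were 73.6, 69.4, 76.4 and 74.2 CPM (library 1) or 74.6, 66.9, 76.2 and 86.4 CPM (library 2), so that on that scale it was no lower in Ery 6 than in Ery 3.

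Mxi1 (ENSMUSG00000025025, chromosome 19, 53310518 to 53375810, plus strand) was highest among the cell types in the granulocyte cluster, with 58.2 (47.8 to 70.1) and 36.4 (28.3 to 46.1) CPM. Eryb had 38.95 and 19.6 CPM, and the remaining types ranged from 11.3 to 35.1 CPM in library 1 and from 6.17 to 22.6 CPM in library 2. These values are over all UMIs. Adult globins made up 36.1% and 58.8% of UMIs in Eryb, and embryonic globins were high in EryP. Without globin UMIs both types would stand higher relative to the granulocyte cluster, whose first place therefore holds for this scale only. Along maturation it was at 19.9, 21.1, 24.7, 45.9, 59.9 and 37.8 CPM in library 1 and at 14.9, 16.0, 15.1, 22.2, 27.3 and 15.8 CPM in library 2. In CPM it peaked in Ery 5 in both libraries, whereas per 100 cells it was highest in Ery 1, with 52.3 and 38.4 UMIs beside 35.2 and 27.1 UMIs in Ery 5. In CPM, Ery 5 exceeded Ery 1 without overlap of the intervals. From Ery 5 to Ery 6 the ratio was 0.630 (0.514 to 0.774) and 0.580 (0.463 to 0.728). Gm10197, on the opposite strand, overlaps Mxi1 and is counted separately.

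Mxd1 (ENSMUSG00000001156, chromosome 6, 86647042 to 86669161, minus strand) was higher in each subcluster than in the one before it, although the step from Ery 4 to Ery 5 in library 2 had a ratio of 1.10 (0.921 to 1.31). It was at 3.04, 5.77, 21.4, 46.9, 57.5 and 119 CPM from Ery 1 to Ery 6 in library 1 and at 2.80, 5.86, 13.1, 30.9, 34.0 and 62.1 CPM in library 2. The level in Ery 6 was 39.0-fold (27.1 to 58.3) and 22.2-fold (15 to 34.2) that in Ery 1. The starting level in Ery 1 was no higher than the 4.31 and 2.86 CPM that 10% of free RNA would give, and was 2.77-fold and 2.97-fold lower than in HSPC. After thinning, an Mxd1 UMI was found in 33.1% and 19.5% of Ery 6 cells and in 1.33% and 1.67% of Ery 1 cells. Before thinning the shares were 39.8% and 38.95% in Ery 6 and 7.20% and 6.41% in Ery 1, with median depths of 4378 and 7882.5 UMIs per Ery 6 cell and 26146 and 25977 per Ery 1 cell. The libraries differed in the size of the rise, but with globin UMIs left out Ery 6 was at 283 and 289 CPM. Among the other cell types and over all UMIs, Mxd1 was at 25.9 and 17.9 CPM in the granulocyte cluster. EryP had 13.6 and 15.5 CPM, from 13 and 15 UMIs, and would stand higher relative to the granulocyte cluster without globin UMIs. The remaining types were at 19.1 CPM or lower, except in megakaryocytes. There the libraries disagreed, with 88.3 (68.6 to 112) and 13.8 (7.55 to 23.2) CPM. The median depth of these 79 and 56 cells was 5699 and 16944.5 UMIs, and its part in this difference was not tested.

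**Figure D1:**
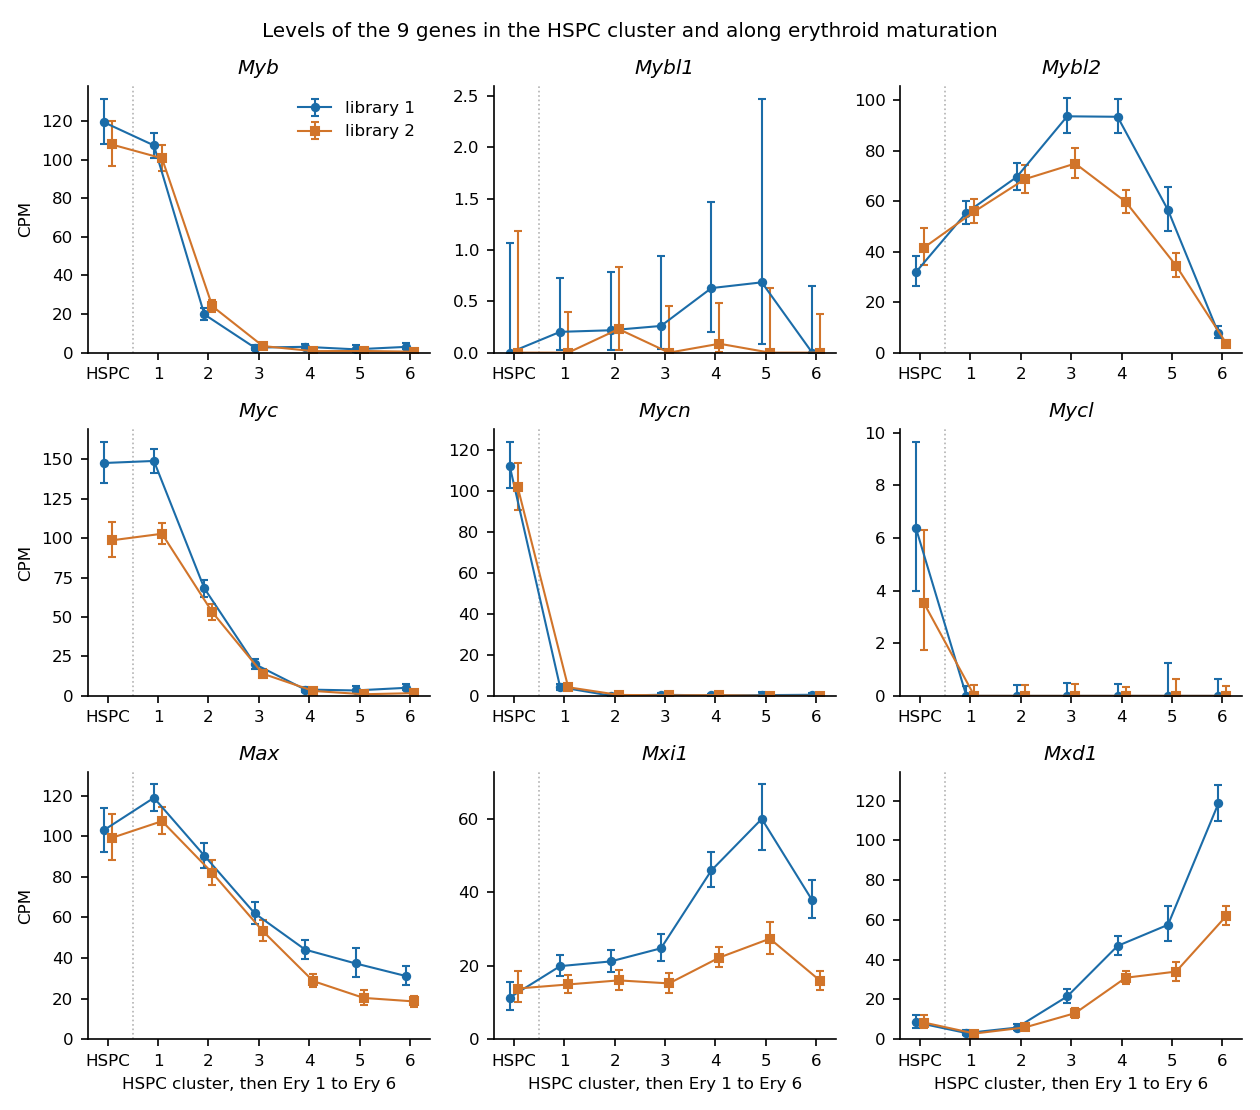
Level of each of the 9 genes (vertical axis, CPM) in the HSPC cluster and in Ery 1 to Ery 6 (horizontal axis), with exact Poisson 95% intervals as bars, blue circles for library 1 and orange squares for library 2. Myb and Myc fell to a few CPM by Ery 4, Mycn and Mycl were already at 4.25 CPM or lower in Ery 1, on this scale Mybl2 peaked in Ery 3 and Mxi1 in Ery 5, whereas per cell both were highest in Ery 1, and Mxd1 was highest in Ery 6, at 119 and 62.1 CPM.

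**Figure D2:**
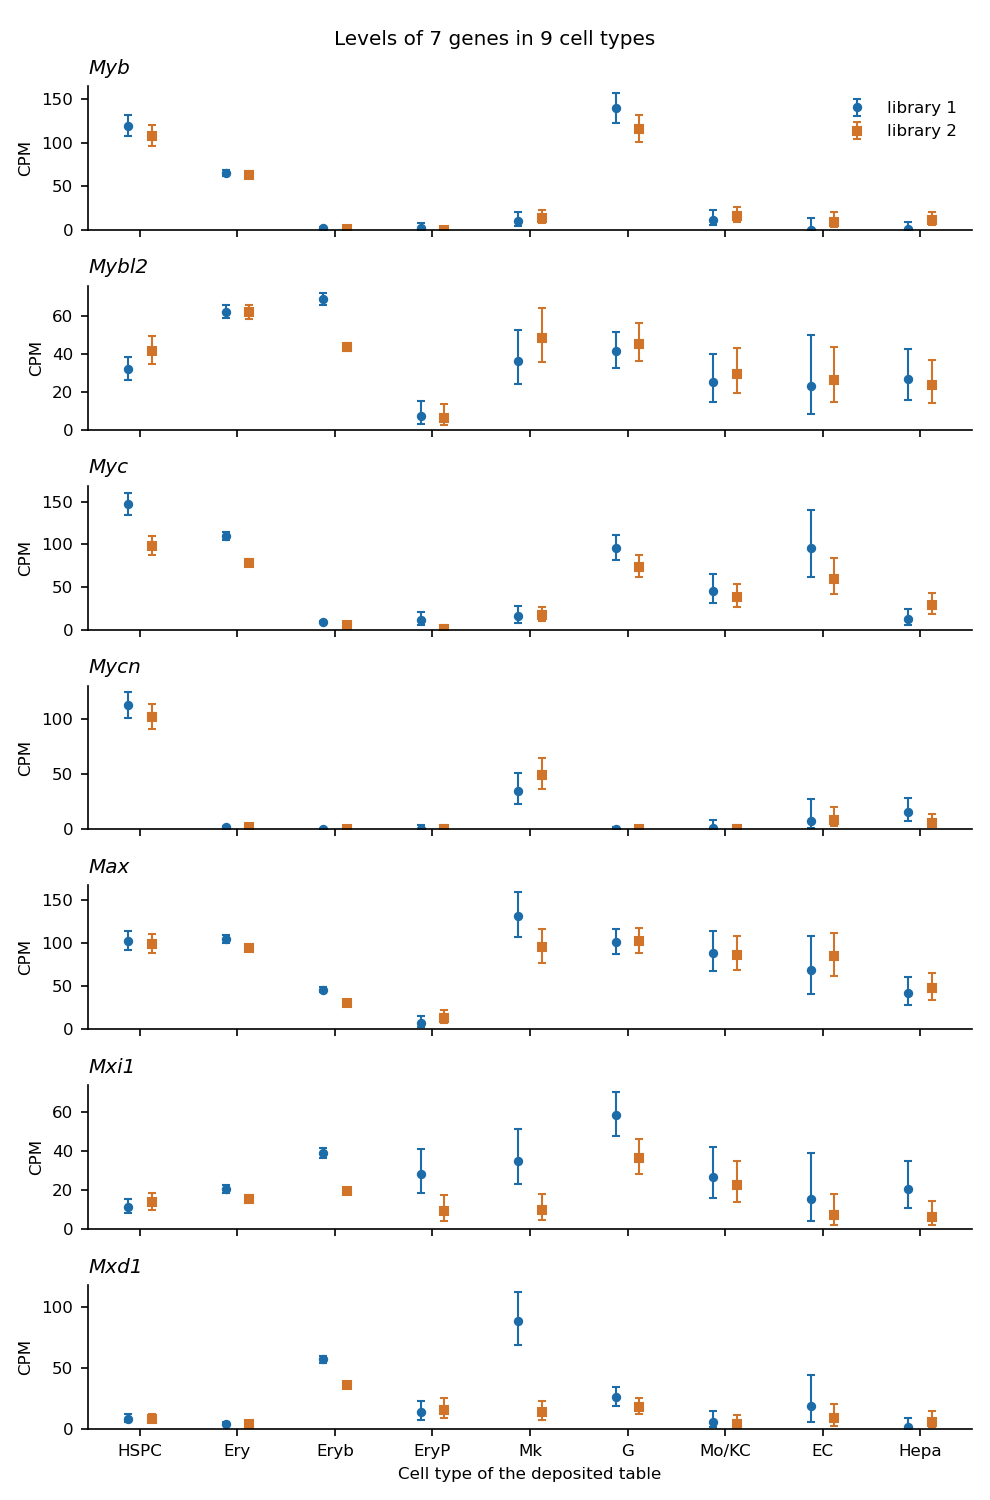
Level of the 7 more abundant genes (vertical axes, CPM) in the 9 cell types of the deposited table (horizontal axis), with exact Poisson 95% intervals as bars, blue circles for library 1 and orange squares for library 2. Mycn was at 112 and 102 CPM in HSPC and had 0 and 1 UMIs in the granulocyte cluster, whereas Mxd1 in megakaryocytes reached 88.3 CPM in library 1 but 13.8 CPM in the other.

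To put the genes in 1 order, the maturation centre of each was computed as the mean subcluster number, from 1 to 6, weighted by its CPM. The centres were 1.41 (1.34 to 1.48) and 1.30 (1.26 to 1.34) for Myb and 1.64 (1.59 to 1.69) and 1.59 (1.54 to 1.63) for Myc. They were followed by 2.70 (2.63 to 2.76) and 2.45 (2.39 to 2.50) for Max and 3.13 (3.07 to 3.19) and 2.86 (2.81 to 2.91) for Mybl2. The antagonists among these genes came last, with 4.04 (3.96 to 4.12) and 3.71 (3.603 to 3.81) for Mxi1 and 5.0 (4.94 to 5.05) and 4.84 (4.77 to 4.91) for Mxd1. The intervals of neighbors in this order did not overlap in either library. Mycn, with 53 and 49 UMIs over the 6 subclusters, had centres of 1.98 (1.40 to 2.57) and 1.38 (1.15 to 1.61) and could not be told apart from Myb or Myc. The median centre of all genes with at least 10 UMIs was 2.58 in library 1 and 2.31 in library 2. Only 2.26% and 1.97% of these genes had a lower centre than Myb, and 99.3% in each library had a lower centre than Mxd1.

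**Figure D3:**
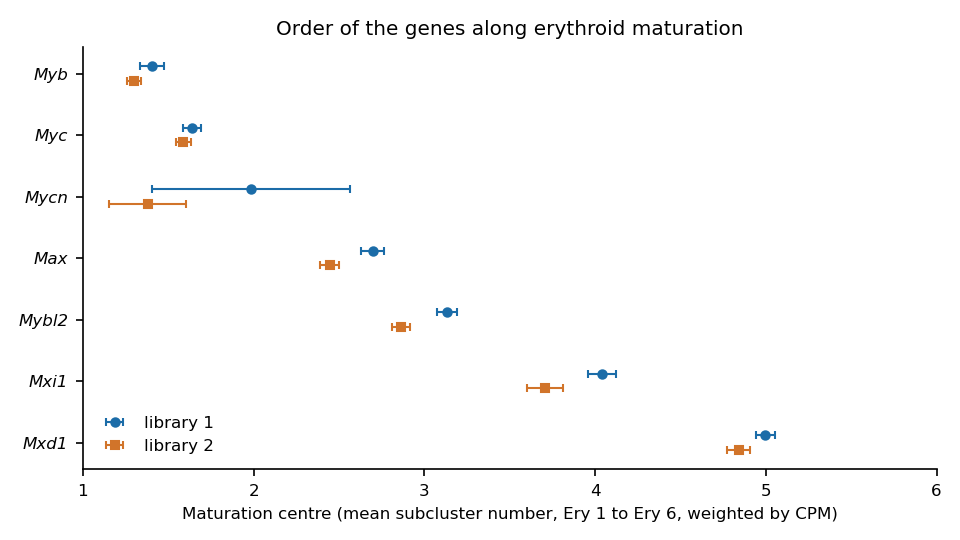
Maturation centre (horizontal axis, mean subcluster number weighted by CPM, without unit) of 7 genes (vertical axis), with 95% intervals from counting error, blue circles for library 1 and orange squares for library 2. The order runs from Myb at 1.41 and 1.30 to Mxd1 at 5.0 and 4.84, and the wide intervals of Mycn reach from 1.40 to 2.57 in library 1 and from 1.15 to 1.61 in library 2.

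The first subcluster in which a gene was at or under 50% of its highest CPM gave the same sequence, with ties. It was Ery 2 for Myb in both libraries, Ery 2 and Ery 3 for Myc, Ery 4 and Ery 3 for Max, and Ery 6 and Ery 5 for Mybl2. Mxi1 did not fall that far in either library. When the erythroid cells were instead divided by their globin share into 10 groups of equal size, Myb dropped from 99.6 and 87.3 CPM in the lowest group to 18.0 and 16.2 CPM in the next one, whereas Myc dropped from 147 and 96.3 CPM to 57.2 and 41.4 CPM. In the same 10 groups Mxd1 was at 2.77 and 2.35 CPM in the lowest and at 137 and 64.6 CPM in the highest.

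By the rule of a 2-fold fall from Ery 1 to Ery 6 in both libraries, with at least 10 UMIs in each, 5 of the 7 genes with enough UMIs fell, namely Myb, Mybl2, Myc, Mycn and Max. This is near the background, since 77.4% of all 10043 genes tested fell by this rule, with a median gene at a log2 ratio of -2.48 and -3.37. Myb, at -5.17 and -7.64, and Myc, at -4.87 and -5.90, lay more than 2-fold below that median in both libraries, Mybl2, at -2.84 and -3.98, was less than 2-fold below it, and Max, at -1.94 and -2.53, was above it. Mycn was at -3.01 in library 1, and had no UMI left in Ery 6 of library 2. At the limit of 3 counts this is a 13.9-fold fall, and the exact interval allows a fall as small as 10.8-fold. Only Mxd1 rose by this rule, at 5.29 and 4.47, whereas 4.81% of all genes did. Mybl1 and Mycl had too few UMIs.

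The calls of Max and Mxi1 depended on the scale. Without globin UMIs in the total, the median gene was at -1.24 and -1.19, and 4 genes fell, beside 49.1% of all genes, and 2 rose, beside 13.8%. On that scale Max was at -0.70 and -0.35 and no longer passed as a fall, and Mxi1 was at 2.17 and 2.28 and passed as a rise. As mean UMIs per cell, 6 genes fell, beside 93.3% of all genes, since Mxi1 was then at -1.57 and -1.53. Mxd1 rose on this scale too, at 2.79 and 2.85, beside 1.64% of all genes. The median gene was at -4.97 and -4.99 per cell. The log2 ratios of Myb, Myc and Mybl2 stayed negative and that of Mxd1 positive on each of the 3 scales.

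**Figure D4:**
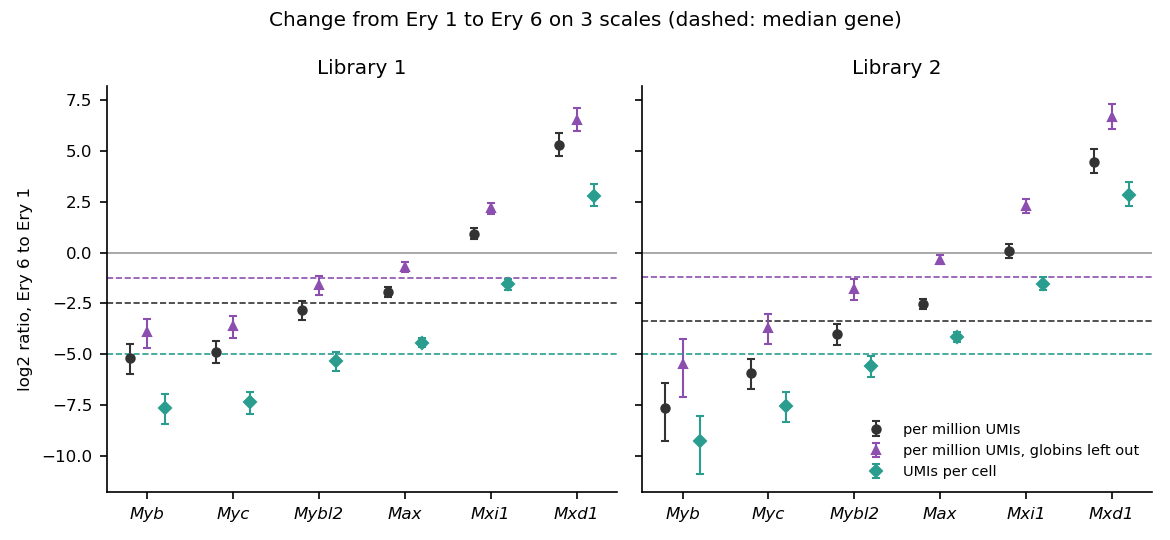
Log2 ratio of Ery 6 to Ery 1 (vertical axis) for 6 genes (horizontal axis), as CPM (black circles), as CPM without globin UMIs (purple triangles) and as UMIs per cell (green diamonds), with exact 95% intervals as bars and the median of all genes tested on each scale as a dashed line. Mxi1 lies at 0.93, 2.17 and -1.57 in library 1 on the 3 scales, while Myb, Myc and Mybl2 lie below 0 and Mxd1 above 0 on each of them.

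Step by step, the genes changed at different points. From HSPC to Ery 1, Mycn, Mycl and Mxd1 fell 2-fold or more in both libraries, beside 17.4% of all genes, and none rose, beside 5.78%. Myb and Mycn fell from Ery 1 to Ery 2, beside 11.9%, and Myb and Myc from Ery 2 to Ery 3, beside 17.6%. Myc fell again from Ery 3 to Ery 4, beside 25% of genes. No gene of the family changed 2-fold in both libraries from Ery 4 to Ery 5, where 18.4% of all genes fell and 0.2% rose. Only Mybl2 fell from Ery 5 to Ery 6, beside 22.4%. Mxd1 rose from Ery 2 to Ery 3, beside 2.25% of genes, and from Ery 3 to Ery 4, beside 1.06%. From Ery 5 to Ery 6 it rose 2.06-fold in library 1 and 1.83-fold in library 2, so that only library 1 passed. Over the first part of the series, from Ery 1 to Ery 3, Myb, Myc and Mycn fell, beside 36.3% of genes, and Mxd1 rose, beside 5.61%.

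Relative to Max, Myc fell from Ery 1 to Ery 4, whereas Mxd1 rose through to Ery 6 and Mxi1 rose up to Ery 5. The ratio of Myc to Max UMIs went from 1.25 (1.16 to 1.35) in Ery 1 to 0.325 (0.269 to 0.390) in Ery 3 and 0.0912 (0.0614 to 0.131) in Ery 4 in library 1. In library 2 it went from 0.956 (0.874 to 1.05) to 0.264 (0.213 to 0.325) and 0.109 (0.0751 to 0.154). Such a ratio is free of the globin content of the cells, and only its change between subclusters is read, not its size. In Ery 4, Myc had 32 and 36 UMIs, below its assumed free RNA level. The size of the fall to Ery 4 is therefore uncertain. The ratio of Mxd1 to Max was higher in each subcluster than in the one before it, from 0.0255 (0.0171 to 0.0366) in Ery 1 to 1.06 (0.916 to 1.23) in Ery 4 and 3.81 (3.23 to 4.53) in Ery 6 in library 1, and from 0.0261 (0.0169 to 0.0384) to 1.08 (0.926 to 1.26) and 3.34 (2.83 to 3.96) in library 2. In Ery 1, Mxd1 had 30 and 26 UMIs, also below its assumed free RNA level, so that the size of its rise is uncertain. The ratio of Mxi1 to Max rose from 0.167 and 0.138 in Ery 1 to 1.61 and 1.34 in Ery 5, and was 1.21 and 0.853 in Ery 6.

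**Figure D5:**
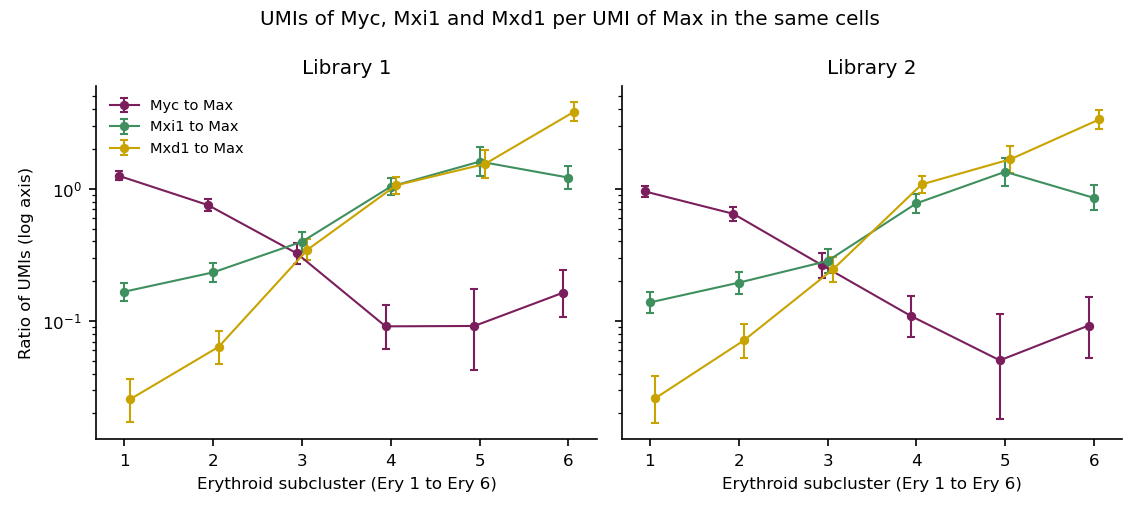
Ratio of the UMIs of Myc (purple), Mxi1 (green) and Mxd1 (yellow) to those of Max in the same cells (vertical axis, log scale, no unit) in Ery 1 to Ery 6 (horizontal axis) of each library, with exact 95% intervals as bars. The ratio of Myc fell from 1.25 and 0.956 in Ery 1 while that of Mxd1 rose to 3.81 and 3.34 in Ery 6.

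Of the other genes of the MYC and MAX network, 6 of the 7 measured ones fell 2-fold or more from Ery 1 to Ery 6, beside 77.4% of all genes, at a median log2 ratio of -3.89 beside -2.95 for all genes. These were Mxd4, Mnt, Mga, Mlx, Mlxip and Bmyc, and Mlxipl had too few UMIs. The exception was Mxd3, a further MXD antagonist, which was at 3.75, 11.3, 41.3, 80.3, 105.8 and 6.68 CPM from Ery 1 to Ery 6 in library 1 and at 3.66, 9.54, 30.4, 45.7, 53.8 and 3.33 CPM in library 2. Mxd3 thus shared the early rise of Mxd1 but not its course at the end. From Ery 5 to Ery 6 its ratio to Max went from 2.83 (2.27 to 3.56) to 0.215 (0.147 to 0.306) in library 1 and from 2.65 (2.14 to 3.30) to 0.179 (0.12 to 0.261) in library 2. Without globin UMIs 5 genes of this list fell, beside 49.1% of all genes, and Mxd3 rose, at 2.07 and 2.05, beside 13.8%. Mxd4, also an MXD gene, was among those that fell, at -1.80 and -2.08. Over all UMIs Mxd4 was at 5.77 and 5.82 CPM in Ery 1 and at 0.703 and 0.303 CPM in Ery 6. Not all MXD genes rose, therefore.

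Of 20 known MYC target genes of growth, 17 fell and 1 rose, beside 77.4% and 4.81% of all genes, at a median log2 ratio of -5.51 beside -2.95 for all genes. Without globin UMIs 17 fell and 3 rose, beside 49.1% and 13.8% of all genes, at a median of -3.80 beside -1.24. The lowest ratios were those of Srm, which makes spermidine, at -5.80 and -6.91, and of the cyclin gene Ccnd2, at -5.58 and -6.50. Srm was at 949 and 971 CPM in Ery 1, 494 and 509 CPM in Ery 2 and 71.0 and 86.0 CPM in Ery 3. Tfrc, the transferrin receptor that takes up iron for heme, rose, at 2.08 and 1.11. The lactate transporter gene Slc16a1, at 0.73 and -0.28, and Odc1, at 0.62 and -0.29, passed in neither direction, but both rose without globin UMIs. Odc1 was named after its values had been seen. Of 14 partners and regulators of MYC, 13 fell, beside 77.4% of all genes, with a median of -3.40 beside -2.95. Without globin UMIs 7 fell, beside 49.1% of all genes, with a median of -1.69 beside -1.24. Ruvbl2 and Ruvbl1, helicases of chromatin complexes that bind MYC, were lowest, at -4.77 and -6.37 and at -4.79 and -5.63. The kinase gene Pim1 rose, at 4.28 and 3.33, and the ubiquitin ligase gene Fbxw7 was at -1.09 and -1.97.

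The 10 listed genes, namely genes of the MuvB and DREAM complexes and Foxm1, changed less than the bulk of genes. Of them 4 fell, beside 77.4% of all genes, at a median of -1.56 beside -2.95 for all genes. These were Lin9, Lin52, Foxm1 and Rbl1, whereas Lin37, Lin54, E2f4, Tfdp1 and Rbl2 did not pass, and neither did Rbbp4, at 0.26 and -0.57. Without globin UMIs none of the 10 fell and Rbbp4 rose, beside 49.1% and 13.8% of all genes. Of 11 late cell cycle targets, 6 fell, also fewer than the 77.4% of all genes, at a median of -1.76 beside -2.95. Without globin UMIs 2 of them fell and 3 rose, beside the same 49.1% and 13.8%. The mitotic genes Cdc20, at -2.61 and -3.52, and Aurkb, at -2.42 and -3.51, were lowest, whereas the kinetochore genes Cenpe, at 1.10 and -0.05, and Cenpf, at 1.08 and -0.30, did not pass in both libraries. Cenpf was at 516 and 286 CPM in Ery 5 and at 98.6 and 54.4 CPM in Ery 6, the step at which Mybl2 and 22.4% of all genes fell. The 2 genes parted at the step before. In Ery 4 Cenpf was lower than in Ery 5, at 300 and 201 CPM. Mybl2 was instead higher in Ery 4, at 93.4 and 59.7 CPM beside 56.5 and 34.5 CPM in Ery 5.

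Of 7 known MYB targets, Kit, Bcl2, Cdk6 and Cd34 fell and Lmo2, Mpo and Elane did not pass in either direction, at a median of -2.80 beside -2.95, whereas 77.4% of all genes fell. The receptor gene Kit was at 53.6 and 47.0 CPM in HSPC, at 33.9 and 31.4 CPM in Ery 1 and at 4.03 and 5.74 CPM in Ery 2. From Ery 1 to Ery 2 Myb fell, and so did 11.9% of all genes. The cell cycle kinase gene Cdk6 was at 124 and 126 CPM in Ery 1 and at 27.5 and 34.8 CPM in Ery 2. Kit and other targets were already lower in Ery 1 than in HSPC. The part of Myb in the course of these genes was not tested. Between HSPC and Ery 1, Cd34 went from 384 and 370 to 5.67 and 6.78 CPM. Over the same step Bcl2 went from 15.1 and 18.2 to 2.73 and 3.23 CPM, and Mpo from 740 and 725 to 22.8 and 33.8 CPM. Mpo and Elane are granule genes of the granulocyte lineage and were at most at 33.8 and 1.42 CPM in Ery 1. Of the 4 coactivator genes, Cebpb and Taf12 fell, and Crebbp and Ep300 did not pass, at a median of -1.53. Without globin UMIs, where 49.1% of all genes fell and 13.8% rose, 3 of the MYB targets fell and 2 rose, and Cebpb fell and Ep300 rose. The 2 targets were Lmo2 and Elane. Over all UMIs Elane was at 3.16 CPM or lower in Ery 1 and Ery 6, so that its rise is uncertain.

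The genes with the most similar course were found by the correlation of log2(CPM + 1) over 13 groups of cells, averaged over the libraries, among 9170 other genes. The groups share their libraries and differ in depth, so that these values are a description. Myb was most similar to Kit, with a mean r of 0.971, followed by Hormad2, Gnptab, Samsn1 and Bsn, at 0.914 to 0.918. Mybl2 was most similar to the DNA primase gene Prim1, at 0.966, and to Ube2t, Atf1, Slbp, which binds histone mRNA, and Cdca4. Myc was most similar to Rpp40, a subunit gene of ribonuclease P, at 0.952, and to Gm13139, Enoph1, Ccdc137 and Rsl24d1. Mycn was most similar to Jam3, at 0.907, and the others named are Fbln1, the homeobox gene Meis1 and Itm2a. Max was most similar to Mcrs1, at 0.978, and to Pqbp1, 1110008F13Rik, Eif2b2 and Zfp207. Mxd1 was most similar to Fam214b, at 0.888, and to Pim1, Cmas, Arrdc3 and the anti-apoptotic gene Bcl2l1. No gene was as similar to Mxi1, for which the highest values were 0.790 for Tspo, followed by Pqlc3, Taldo1, Tuba4a and Abtb1.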

How the data were processed

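Cells of 1 liver were sequenced by the authors as 2 libraries. The authors deposited matrices of raw UMI counts and, for each kept cell, its cluster and cell type, where the spelling HPSC is given here as HSPC. Per the submitters' processing notes, Cell Ranger 2.1.1 and Seurat 3.2.0 were used, whereas the matrix header of library 1 names version 3.0.0. Reads were aligned to mm10 and counted with a GRCm38 annotation. Sorting removed doublets before capture according to the methods, and no doublet caller was run here.

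UMIs were summed per cell group and library and scaled to 1000000 UMIs (CPM). Levels have exact Poisson, shares Clopper-Pearson and ratios exact conditional binomial 95% intervals. Where no UMI was found, 3 counts were taken as the limit. For shares, cells were thinned to 3600 UMIs (1 draw, seed 1), with shallower cells left out. A gene was called at a 2-fold change in both libraries with at least 10 UMIs over both groups. Gene positions are those of GENCODE vM21. The calls, the centres and the intervals were tested on simulated data. The genes and gene lists were chosen with earlier results of these data known. Named are the 9 genes, all genes of lists of up to 10 tested genes, the 2 highest and 2 lowest of longer lists, and the 5 most similar genes of each gene with at least 100 UMIs per library, of which 1 is not reported here. As alternatives, either library alone was used, and other fold thresholds and minimums, other denominators, cell filters, groups by globin share and subtraction of free RNA were tried. Python 3.11.15, numpy 2.4.6, scipy 1.17.1, pandas 2.3.3 and matplotlib 3.10.9 were used.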

Additional observations from a re-analysis of the deposited data

Results flagged for a closer look

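Barcodes that were not called as cells by the authors, but held at least 1000 UMIs and 200 genes, carried UMIs of these genes above the limit of 3 counts that a count of 0 allows. In library 1, 168 such barcodes held 81 UMIs of the 9 genes, of which 28 were Mybl2, 22 Mxd1 and 1 each Myb and Myc. In library 2, 3311 such barcodes held 1459 UMIs, of which 345 were Max, 308 Mybl2, 278 Myc and 237 Myb. Over all UMIs of these barcodes the 9 genes made up 205 and 216.5 CPM. These barcodes carry no cell type and entered no comparison.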

How the results depend on the processing

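The counts of genes that fell or rose 2-fold from Ery 1 to Ery 6 were 5 and 1. With either library alone they stayed at 5 to 5 and 1 to 1. They were also 5 and 1 with fold thresholds of 1.5 and 3, without a minimum of UMIs, under both cell filters, in 6 groups ordered by globin share and with 10% of free RNA subtracted. Without globin UMIs 4 fell and 2 rose, since Max was lost and Mxi1 gained, and per cell 6 fell and 1 rose. Relative to the median gene tested, an alternative chosen after the values were seen, 2 fell, Myb and Myc, beside 21.8% of all genes, and 2 rose, Mxi1 and Mxd1, beside 26.4%. Of 81 alternative log2 ratios, 3 turned their sign, all of Mxi1, which was not called, at -1.57 and -1.53 per cell and -0.06 in groups by globin share in library 2. In all, 39 lay outside the counting interval, of which 12 were without globin UMIs, 12 per cell and 11 relative to Max. The order Myb, Myc, Max, Mybl2, Mxi1, Mxd1 held in both libraries under all 6 alternatives computed for the centre. Mycn changed its place among Myb and Myc, and came first with free RNA subtracted. Of 52 alternatives for the subcluster of the fall 42 gave the same one. Of 324 alternative shares of cells, from no thinning or a minimum of 2 UMIs, 194 lay outside the interval of the thinned share. No paired analysis was possible because the design has a single group and no test.

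Counts under about 10 UMIs limit what can be said of Mybl1, Mycl and, beyond Ery 1, Mycn. Levels of Myb and Myc in late subclusters, and of Mybl2 in Ery 6, are near or below that of an assumed 10% of free RNA. The true share of free RNA in the cells was not measured.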
